A study of Mus musculus with 10 samples.

Results

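Cux1, Cux2, Rorb, Mef2c and Bhlhe22 are transcription factor genes that mark or shape the neurons of the upper layers of the cerebral cortex, and their messenger RNA was followed here in single cells of the embryonic mouse cortex at E16.5. The 5 genes were taken by name from the 31053 genes of the deposited tables, with earlier results of these data known, and 5 of the 5 passed the filter on low counts over all cells. The study sequenced whole cortices dissected from 10 embryos, 1 library per embryo: 3 wild-type embryos (WT), 4 embryos with 1 trapped copy of Gatad2b (Gatad2b stop/+, Het) and 3 with both copies trapped (Gatad2b stop/stop, KO). Gatad2b encodes a subunit of the chromatin-remodelling complex NuRD. The stop allele (tm1a(EUCOMM)Hmgu) carries a splice-trapping lacZ cassette in an intron and keeps the exons, so 3′ counts of Gatad2b need not vanish in KO, and the allele acts in every cell of the animal from the start of development. The mice were on a C57BL/6N-A tm1Brd background. One question of the design is whether genes of cortical neurons change with the number of mutant Gatad2b alleles.

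Cortical excitatory neurons are born in order, the deep layers V and VI first and the upper layers II to IV last, from radial glia and from intermediate progenitors of the subventricular zone. Cux1 and Cux2 encode cut-domain homeodomain proteins that control dendrites, spines and synapses of upper-layer neurons, and Cux2 is also made in migrating interneurons. Rorb encodes a retinoid-related orphan nuclear receptor known for the thalamus-receiving neurons of layer IV and for a part of layer V. Mef2c encodes a MADS-box factor that acts in neuronal maturation and in synapse number, and that is also made in interneurons, microglia and vessel cells. Bhlhe22 encodes a basic helix-loop-helix repressor that works with Prdm8 in projection neurons and in the patterning of cortical areas. In the annotation of mouse build GRCm38, Cux1 (ENSMUSG00000029705) lies on chromosome 5 from 136248135 to 136567490 on the minus strand, and Cux2 (ENSMUSG00000042589) on chromosome 5 from 121856366 to 122050102 on the minus strand. Rorb (ENSMUSG00000036192) spans 18930605 to 19111196 of chromosome 19 on the minus strand, Mef2c (ENSMUSG00000005583) spans 83504034 to 83667080 of chromosome 13 on the plus strand, and Bhlhe22 (ENSMUSG00000025128), a gene with 1 exon, spans 18054174 to 18057517 of chromosome 3 on the plus strand. An exon of Cux1 overlaps Gm16599 on the opposite strand, and the Cux1 locus also makes the Golgi protein CASP from a different 3′ end. Counts of the gene do not tell the Cux1 and CASP transcripts apart.

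A promoter table from RefSeq (GRCm38.p6, 250 bases before to 50 after each start) held 4 of the 5 genes, all but Bhlhe22. The outermost start of each gene is shown because the promoters of the 2 genes that fell most in KO layer II-IV-like cells, Mef2c and Rorb, can be set beside those of Cux1 and Cux2. Each sequence is written 5′ to 3′ on the strand of the gene with every CG dinucleotide in capitals. The Mef2c window lies at chr13:83503784-83504083 on the plus strand, the Rorb window at chr19:19111147-19111446, the Cux1 window at chr5:136565932-136566231 and the Cux2 window at chr5:122049802-122050101, the last 3 on the minus strand.
Mef2c: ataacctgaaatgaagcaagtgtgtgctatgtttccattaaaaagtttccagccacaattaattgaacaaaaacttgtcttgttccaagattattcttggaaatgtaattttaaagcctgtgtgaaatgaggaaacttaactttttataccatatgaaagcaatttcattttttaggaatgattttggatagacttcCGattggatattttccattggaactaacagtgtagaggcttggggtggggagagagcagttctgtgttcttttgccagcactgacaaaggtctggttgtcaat
Rorb: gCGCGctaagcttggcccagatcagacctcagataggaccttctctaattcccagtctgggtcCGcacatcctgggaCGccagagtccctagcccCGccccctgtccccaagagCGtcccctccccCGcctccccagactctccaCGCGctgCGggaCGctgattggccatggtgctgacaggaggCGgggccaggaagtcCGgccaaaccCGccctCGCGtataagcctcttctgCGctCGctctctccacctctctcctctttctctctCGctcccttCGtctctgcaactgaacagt
Cux1: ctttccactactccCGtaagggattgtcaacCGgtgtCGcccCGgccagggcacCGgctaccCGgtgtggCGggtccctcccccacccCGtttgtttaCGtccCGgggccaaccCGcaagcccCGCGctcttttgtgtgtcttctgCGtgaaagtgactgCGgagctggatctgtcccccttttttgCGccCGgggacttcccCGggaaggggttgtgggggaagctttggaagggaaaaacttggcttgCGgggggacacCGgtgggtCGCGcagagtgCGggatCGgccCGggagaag
Cux2: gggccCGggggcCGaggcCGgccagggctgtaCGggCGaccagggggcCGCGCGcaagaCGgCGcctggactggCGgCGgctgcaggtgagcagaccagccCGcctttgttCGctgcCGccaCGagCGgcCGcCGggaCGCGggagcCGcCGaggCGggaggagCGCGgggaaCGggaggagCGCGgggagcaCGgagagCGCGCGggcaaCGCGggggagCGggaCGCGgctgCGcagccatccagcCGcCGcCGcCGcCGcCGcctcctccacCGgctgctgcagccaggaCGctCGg
The Mef2c window held 1 CG dinucleotide and 35.7% G and C, the Rorb window 20 and 63.7%, the Cux1 window 25 and 65%, and the Cux2 window 48 and 80.3%. The median of the 32851 promoters of the table was 7 CG dinucleotides and 52.7%. Mef2c and Rorb, the pair that fell most in layer II-IV-like cells, lay on opposite sides of that median. Motifs were searched on both strands. Of these 4 windows only that of Mef2c held the E-box CATATG, of the kind bound by basic helix-loop-helix factors, and the letters TATAAA; 3.91% and 13.6% of all promoters of the table hold them. The MEF2 motif (which can overlap TATAAA), the receptor half-site AGGTCA and the cut-homeodomain letters ATCGAT, held by 3.69%, 16.3% and 0.925% of all promoters, were in none of these 4 windows. A further Cux2 start at chr5:122047776-122048075 (minus strand), with 4 CG dinucleotides, held a match to ATCGAT. Which start the cells used was not measured, since the libraries count 3′ ends.

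Of 80071 deposited cell barcodes, 65779 cells (5147 to 8103 per embryo) held at least 1000 unique molecular identifiers (UMIs, counts of distinct RNA molecules) and at most 10% mitochondrial UMIs. They held 82872641 to 123737385 UMIs per embryo, and the median cell of an embryo 10795 to 17077.5. Libraries shared 4 to 19 barcodes per pair, at most 0.325% of a library. Clusters were named from markers that do not include the 5 genes, and the 5 genes did not enter the clustering; 16242 cells in clusters 0 and 1 formed the layer II-IV-like class (Unc5d, Inhba and others) and 12123 in clusters 3, 6 and 7 the layer V-VI-like class (Fezf2, Ldb2, Crym, Tle4 and others). Cluster 3 scored about the same for upper-layer and for deep-layer markers (0.72 and 0.68, mean z-score of the markers over the clusters) and was named by its leading genes, among them Ldb2 and Fezf2, and the border between both classes moves with the clustering. The clustering was repeated in 7 other ways: from 4 other random starts, at a finer resolution, without integration over embryos, and with the 5 genes allowed in. The 4 other starts gave 25 to 27 clusters and kept 94.6% to 97.4% of the layer II-IV-like cells in that class. The finer resolution gave 39 clusters and kept only 73.7% of them. Without integration 96.1% were kept, and with the 5 genes allowed in 97.0%. Gatad2b itself was at 137 ± 4.81 UMIs per 1000000 UMIs (CPM, SD, n = 3) in WT, 91.8 ± 3.82 (n = 4) in Het and 53.2 ± 4.49 (n = 3) in KO, in the order of the genotype labels. The library names carry 2 prefixes whose meaning is not stated: 1 covers the 3 WT embryos and Het 4, the other Het 1 to 3 and the 3 KO embryos. KO and WT therefore cannot be told apart from the prefix, and the comparison of KO with Het 1 to 3 is the only one of 3 against 3 within a prefix. A covariate for the prefix rests on a single embryo, Het 4, set against Het 1 to 3.

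In WT cortex the genes did not share one pattern over the classes, and among the named classes 3 of them had their highest mean in layer II-IV-like cells. The unnamed clusters, pooled, were at 611 ± 101 CPM (SD, n = 3) of Bhlhe22, a higher mean than in any named class, with embryos that overlapped those of layer II-IV-like cells. A level here is a gene's CPM among the UMIs of the class in an embryo, and levels are compared between classes and never between genes. Cux1 in layer II-IV-like cells was at 322 ± 13.8 CPM (SD, n = 3) and at 253 ± 40.2 in interneuron-like cells, with no overlap of the embryos, and at 63.4 ± 2.31 in layer V-VI-like cells. Cux2 was at 215 ± 45.8 CPM in interneuron-like cells, at 111 ± 0.913 in layer II-IV-like cells and at 56.6 ± 5.50 in subventricular zone-like cells, and the embryos of these 3 classes did not overlap. Below them the Cux2 levels of most neighbouring classes overlapped, down to 17.1 ± 0.594 in layer V-VI-like cells. Mef2c was at 1734 ± 79.5 CPM in layer II-IV-like cells, above all other classes in each embryo. Its next levels, 1253 ± 155 in interneuron-like and 1219 ± 146 in layer V-VI-like cells, overlapped, and so did those of layer V-VI-like and microglia-like cells (793 ± 358). Bhlhe22 was at 553 ± 22.4 CPM in layer II-IV-like, 477 ± 42.9 in layer V-VI-like and 324 ± 3.84 in Cajal-Retzius-like cells, 3 classes of cortical glutamatergic neurons that did not overlap. The lowest layer II-IV-like embryo (526.9 CPM) was barely above the highest layer V-VI-like embryo (525.9 CPM). With doublets removed these classes overlapped (530.5 and 538.9 CPM).

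Rorb went against the label of an upper-layer gene at this age. It was at 159 ± 27.6 CPM in layer V-VI-like cells and 122 ± 10.8 in radial glia-like cells, which overlapped, and at 89.2 ± 13.2 in layer II-IV-like cells, below both without overlap. The next class, ganglionic eminence-like cells, was lower again without overlap at 40.4 ± 7.22 CPM. Erythroid-like cells, taken to lack all 5 transcripts, served as a gauge of free RNA: 18.2 ± 8.73 CPM for Cux1, 7.98 ± 3.18 for Cux2, 5.92 ± 2.69 for Rorb, 63.6 ± 23.4 for Mef2c and 24.1 ± 11.3 for Bhlhe22. Against 3 times this level, 6 of the 11 other classes were lower for Bhlhe22, 5 for Cux2, 3 for Mef2c, 3 for Rorb and 0 for Cux1. The gauge is not a floor. With doublets removed, WT Bhlhe22 was at 10.5 CPM in radial glia-like and 22.1 in erythroid-like cells. Mef2c was then at 38.4 CPM in Cajal-Retzius-like and 56.1 in erythroid-like cells. The source of the UMIs in erythroid-like cells was not tested.

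**Figure D1:**
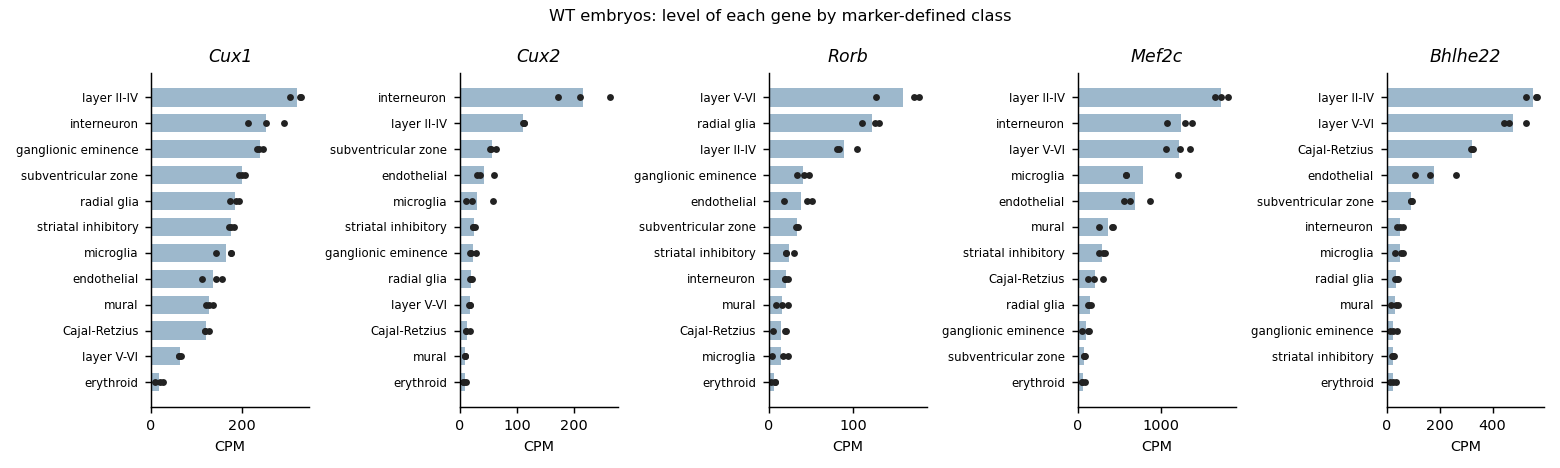
Level of each gene in each marker-defined class of the 3 WT embryos, in CPM of the class on a linear axis; bars are means, points are embryos, and classes are sorted by mean within each gene. Among the named classes Cux1, Mef2c and Bhlhe22 had their highest mean in layer II-IV-like cells, Cux2 in interneuron-like cells (215 CPM) and Rorb in layer V-VI-like cells (159 CPM).

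Within the layer II-IV-like class the genes separated 2 clusters that the clustering had found without them. Cluster 0 was led by genes that include Inhba and Cdh12, and cluster 1 by Pdzrn3, Unc5d and Sema3c, genes of migrating young neurons. In WT, Mef2c was at 2383 ± 47.6 CPM in cluster 0 and at 216 ± 14.8 in cluster 1, the largest gap of the 5 genes. Rorb was at 114 ± 14.3 and 29.8 ± 6.17 CPM in the same order. Cux2 went the other way, with 107 ± 2.54 and 119 ± 5.21 CPM and no overlap of the embryos. Cux1 at 319 ± 9.56 and 329 ± 34.02 CPM and Bhlhe22 at 564 ± 22.8 and 526 ± 20.3 were nearly even. The highest Bhlhe22 level of the 25 clusters was in cluster 4 (858 CPM), an unnamed group led by Fam19a1, Tfap2d and Thsd7a, and the highest Rorb level in cluster 13 (277 CPM), an unnamed group of shallow cells with a median of 1528 UMIs.

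Deep-layer and interneuron clusters also differed among themselves. In the layer V-VI-like class, Rorb was at 220 CPM in cluster 3 (Nrip1, Ldb2, Fezf2) and 211 in cluster 6 (Hs3st4, Tle4) but at 24.4 in cluster 7 (Crym, Grp). Bhlhe22 was at 558 and 688 CPM in clusters 3 and 7 and at 131 in cluster 6. Mef2c was at 1749 and 1539 CPM in clusters 3 and 6 and at 199 in cluster 7. Cux2 was at 377 CPM in interneuron-like cluster 2 (Maf, Nxph1, Lhx6), 231 in cluster 15 (Sst, Nxph1), 61.7 in cluster 16 (Sst, Npy) and 27.99 in cluster 10 (Adarb2, Prox1). Over the 22 clusters with enough WT cells, and among 9962 genes, the gene most like Cux1 by Pearson r of log2 CPM was Tle3 (0.85), and for Cux2 it was Ankrd50 (0.82), with Cux1 among its closest 5 (0.75). Rorb was most like the deep-layer gene Sox5 (0.89), Mef2c most like St6gal2 (0.92), and Bhlhe22 most like Prdm8 (0.90), its known partner. These clusters come from the same 3 libraries and differ in depth, and the correlations are descriptions.

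The main comparison was of layer II-IV-like cells. Mef2c and Rorb fell there in KO, and Cux1, Cux2 and Bhlhe22 stayed within a change of log2 0.25 in the main fit. Mef2c and Rorb were also called lower in Het, Rorb only with this clustering. A gene was called when the Benjamini-Hochberg adjusted p of edgeR's quasi-likelihood test over all genes was under 0.05 and the absolute log2 fold change was above 0.25. By this rule 2 of the 5 genes were called in KO against WT, where 31.1% of all 14166 genes tested were called, and 2 of 5 in Het against WT, where 7.4% were. The class held 25.8 ± 2.99% of cells in WT, 23.98 ± 3.08% in Het and 24.4 ± 1.17% in KO.

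Mef2c was at 1657, 1816 and 1728 CPM in the 3 WT embryos, at 1061, 1340, 1419 and 1310 in Het 1 to 4, and at 753, 734 and 712 in the 3 KO embryos. The 3 genotypes did not overlap, and each further mutant allele came with a lower range. Against WT, Mef2c fell by 0.40 on the log2 scale in Het (SE 0.08, adjusted p = 0.00483, edgeR) and by 1.20 in KO (SE 0.08, adjusted p = 4.91e-08), a loss of 24.4% and 56.5%. Under the 7 other clusterings the KO difference lay between -1.20 and -1.02 and the Het difference between -0.395 and -0.31, and both were called in each. Mef2c is on a list of changed genes that the study drew from these same embryos, so this is not independent evidence of its direction. With the library prefix as a covariate the Het difference was -0.38 with adjusted p = 0.0987.

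Rorb was at 80.8, 104 and 82.4 CPM in WT, at 44.9, 62.9, 67.2 and 69.8 in Het 1 to 4, and at 29.7, 20.5 and 29.4 in KO. The 3 genotypes did not overlap. Rorb fell by 1.71 in KO (SE 0.16, adjusted p = 1.06e-06, edgeR), a loss of 69.4%, and by 0.51 in Het (SE 0.14, adjusted p = 0.0287). The size in KO rests in part on which cells enter the class: under the 7 other clusterings the difference lay between -1.67 and -1.04 and was called in each. The Het difference lay between -0.47 and -0.24 there and was called in 0 of the 7. The Het call was also lost without WT 2 (-0.38, adjusted p = 0.132), WT 3 (-0.57, adjusted p = 0.0653) or Het 1 (-0.39, adjusted p = 0.0690), by DESeq2 (adjusted p = 0.0621) and with the prefix as a covariate (-0.33, adjusted p = 0.469). With that covariate the KO difference was -1.45 (adjusted p = 0.00079).

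Cux1 was at 332, 307 and 329 CPM in WT, at 303, 283, 298 and 313 in Het, and at 249.6, 267 and 293 in KO. The KO embryos were below the WT embryos without overlap, but the difference of -0.22 (SE 0.05, adjusted p = 0.00435, edgeR) was under the fold threshold, and the Het difference of -0.08 had adjusted p = 0.338. Without WT 2 or KO 3 the KO difference of Cux1 was -0.250 and -0.26 (adjusted p = 0.00489 and 0.00212) and past that threshold, as it was in 3 of the 7 other clusterings (-0.28 to -0.25). Cux2 was at 112, 110 and 112 CPM in WT, at 107, 104, 108 and 91.0 in Het, and at 96.97, 115 and 109 in KO, and the KO range held all WT values. Its KO difference was -0.011 (SE 0.07, adjusted p = 0.911). Bhlhe22 was at 527, 563 and 568 CPM in WT, at 500.1, 535, 580 and 631 in Het, and at 639, 612 and 605 in KO, with every KO embryo above every WT embryo. Its KO difference of 0.21 (SE 0.07, adjusted p = 0.0243) was also under the fold threshold, and past it in 3 of the 7 other clusterings (0.26 to 0.32). With the library prefix as a covariate the KO difference of Bhlhe22 was larger, past that threshold and called.

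**Figure D2:**
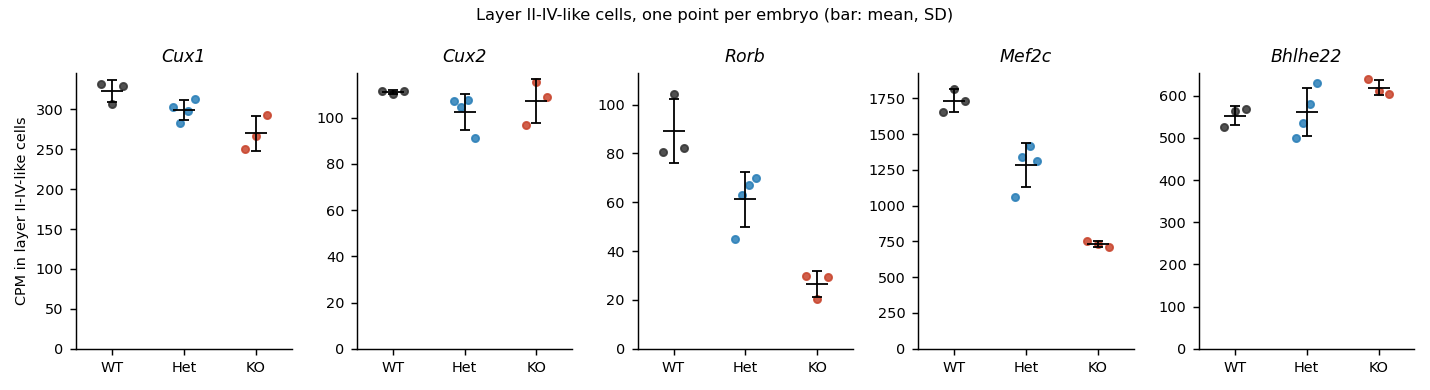
Level of each gene in layer II-IV-like cells, in CPM of the class on linear axes from 0; each point is an embryo of WT (n = 3), Het (n = 4) or KO (n = 3), and the bar gives the mean and SD. Mef2c stepped down from 1734 to 1283 to 733 CPM and Rorb from 89.2 to 61.2 to 26.5 CPM with no overlap, and the Cux2 values of KO overlapped those of WT and of Het.

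The makeup of the class changed beside these values. Cluster 1, in which Mef2c and Rorb were low, made up 37.8 ± 2.56% of layer II-IV-like cells in WT, 45.1 ± 3.12% in Het and 56.4 ± 4.16% in KO, and cluster 0 the rest. For a recalculation, the mean WT makeup was taken as shares of the UMIs of the class, 0.70 in cluster 0 and 0.30 in cluster 1. With every embryo set to this makeup, the KO difference of Mef2c was -0.87 and that of Rorb -1.55 on the log2(CPM + 1) scale, against -1.24 and -1.72 at the makeup found. The same values for Cux1, Cux2 and Bhlhe22 were -0.27, -0.14 and 0.27. This recalculation was chosen after seeing the data and has no test.

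Fitted cluster by cluster, Mef2c and Rorb fell in KO in both clusters. In cluster 0, Mef2c was at 2340, 2434 and 2375 CPM in WT, at 1705, 1932, 2092 and 2062 in Het and at 1302, 1228 and 1360 in KO, again 3 ranges without overlap, and it fell by 0.84 (SE 0.06, adjusted p = 9.93e-08, edgeR). In cluster 1 it was at 199, 226 and 223 CPM in WT, at 129, 160, 152 and 171 in Het and at 121, 122 and 130 in KO, where Het 1 lay within the KO range, and it fell by 0.73 (SE 0.08, adjusted p = 1.39e-06). Rorb fell by 1.64 in cluster 0 (SE 0.18, adjusted p = 4.4e-06), from 105, 131 and 107 CPM in WT to 39.3, 24.8 and 43.3 in KO. In cluster 1 Rorb fell by 0.75 (SE 0.12, adjusted p = 0.000106), from 28.6, 36.5 and 24.4 CPM to 18.5, 15.2 and 16.9. Over the 5 genes, 3 were called in cluster 0 and 2 in cluster 1, beside 28% and 25.3% of all genes tested in these clusters.

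Bhlhe22 was the third gene called in cluster 0, and it rose. It was at 538, 573 and 581 CPM in WT, at 547, 585, 635 and 705 in Het and at 764, 730 and 746 in KO, with all KO embryos above all others, a difference of 0.45 (SE 0.07, adjusted p = 0.000162, edgeR). In cluster 1 it was at 502, 540 and 535 CPM in WT and at 496, 466 and 478 in KO, and the difference of -0.07 had adjusted p = 0.445. Cux1 and Cux2 were not called in either cluster. In cluster 0 their differences of -0.24 and -0.22 (adjusted p = 0.00229 and 0.0181) were under the fold threshold, and in cluster 1 they were -0.18 and 0.14 (adjusted p = 0.0714 and 0.176). In Het, Mef2c alone was called, by -0.25 in cluster 0 and -0.46 in cluster 1, beside 5.5% and 4.85% of all genes. The Het call in cluster 0 was lost without WT 2 (-0.24, adjusted p = 0.0684), WT 3 (-0.26, adjusted p = 0.0652) or Het 1 (-0.20, under the fold threshold).

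**Figure D3:**
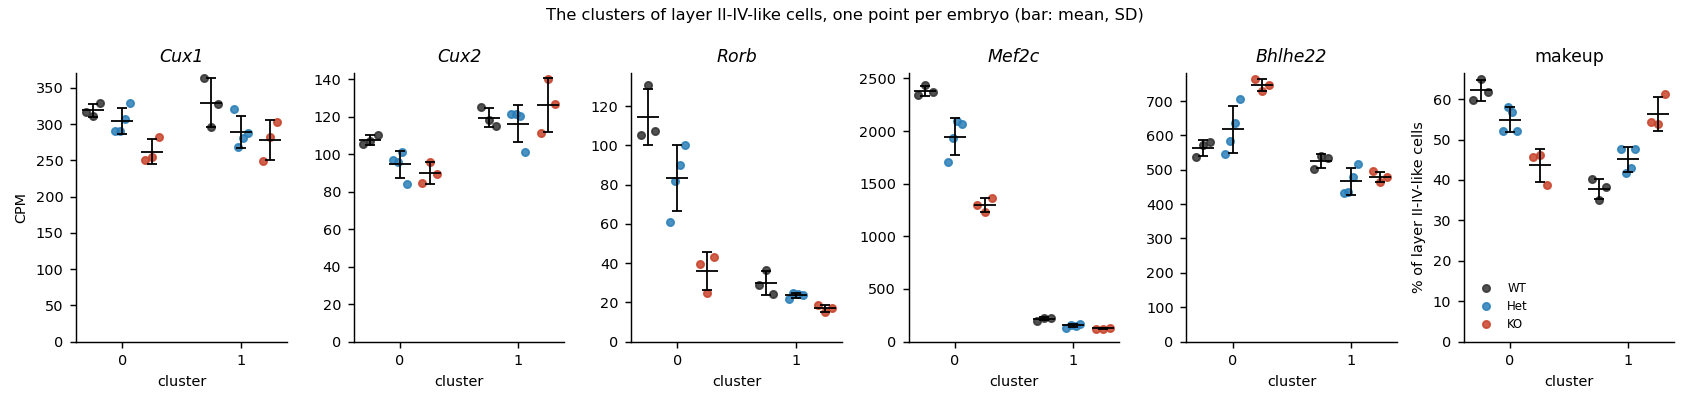
Level of each gene in the 2 clusters of layer II-IV-like cells (CPM of the cluster, linear axes from 0) and, in the last panel, the share of each cluster in the class in percent; each point is an embryo, and bars give mean and SD for WT, Het and KO. Mef2c and Rorb were lower in KO than in WT in both clusters, Bhlhe22 was higher in cluster 0, and cluster 1 grew from 37.8% to 56.4% of the class.

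KO was next set against Het 1 to 3, which share a library prefix with it. In layer II-IV-like cells Mef2c was lower in KO by 0.79 (SE 0.08, adjusted p = 9.71e-06, edgeR) and Rorb by 1.12 (SE 0.14, adjusted p = 5.18e-05), and these 2 of 5 genes were called beside 12.8% of all genes. The embryo values are those above, and neither gene overlapped between these groups. Cluster by cluster, Rorb (-1.12), Mef2c (-0.56) and Bhlhe22 (0.34, higher in KO) were called in cluster 0 beside 11.6% of all genes, and Rorb alone (-0.45) in cluster 1 beside 7.18%. In cluster 1 the Mef2c difference within the prefix was -0.21 (adjusted p = 0.0316), under the fold threshold.

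Fewer cells of the class as a whole held a UMI of Mef2c or Rorb in KO, and such cells held fewer UMIs. These values pool clusters 0 and 1, of which cluster 1 made up 37.8% of the class in WT and 56.4% in KO, and they were not split by cluster. Each cell was thinned to 3000 UMIs, which left out 4 to 27 shallower layer II-IV-like cells per genotype. The median cell of the class had 14925.5 UMIs in WT, 16746 in Het and 17852 in KO before thinning. A Mef2c UMI was found in 72.8 ± 2.87% of cells in WT, 62.8 ± 3.30% in Het and 50.5 ± 2.54% in KO, and these cells held 6.12 ± 0.131, 5.09 ± 0.329 and 3.48 ± 0.203 Mef2c UMIs. Both measures fell with the number of mutant alleles (exact permutation test of the trend over 4200 assignments, two-sided, adjusted p = 0.00119 for each, over 10 tests). Rorb UMIs were found in 12.7 ± 1.15%, 9.66 ± 0.815% and 5.70 ± 0.945% of cells, with the same adjusted p for the trend. The UMIs per Rorb cell, 1.68, 1.51 and 1.23, had adjusted p = 0.00667 in that exact test.

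Cux1 UMIs were found in 55.7 ± 1.90%, 52.9 ± 1.71% and 50.7 ± 3.54% of cells, with adjusted p = 0.0452 for the trend in the exact permutation test, and the UMIs per Cux1 cell, 1.84, 1.79 and 1.67, fell with adjusted p = 0.00119. The trend in the share of Cux1 cells was no longer past the threshold without any 1 of WT 1, WT 3, Het 1, Het 3, Het 4, KO 1 and KO 2 (KO minus WT from -5.02 to -3.36 percentage points). Cux2 was found in 29.7 ± 1.30%, 27.1 ± 1.95% and 26.7 ± 2.77% of cells and Bhlhe22 in 71.0 ± 0.421%, 70.9 ± 2.67% and 74.5 ± 1.30%, with no trend past the threshold (adjusted p = 0.133 and 0.0973, exact permutation test). Without KO 2 the share of Cux2 cells did pass (KO minus WT of -4.35 percentage points), and without Het 1 that of Bhlhe22 cells (3.54). With cells thinned to 5000 UMIs the trend in the share of Cux1 cells was no longer past the threshold and that of Bhlhe22 cells was. Without thinning the share of Cux1 cells was higher in KO than in WT, and the Bhlhe22 trend passed. With 3 embryos against 3, an exact test of KO against WT alone cannot go below p = 0.1. Thinned WT erythroid-like cells gave 4.42% for Cux1, 2.12% for Cux2, 1.54% for Rorb, 10.4% to 17.5% for Mef2c and 5.55% for Bhlhe22, and had a median of 8382.5 UMIs before thinning. The layer II-IV-like shares were above these.

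**Figure D4:**
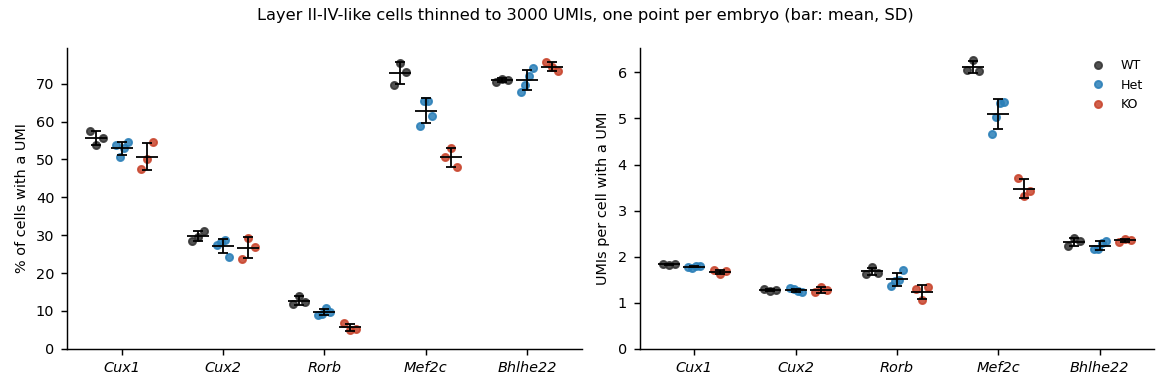
Share of layer II-IV-like cells with a UMI of each gene (left, percent) and UMIs of the gene per such cell (right), with each cell thinned to 3000 UMIs; each point is an embryo, and bars give mean and SD for WT, Het and KO. Mef2c stepped down in both panels (72.8% to 50.5% of cells, 6.12 to 3.48 UMIs), and so did Rorb (12.7% to 5.70% of cells, 1.68 to 1.23 UMIs).

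The genes were also set against each other within cells of the class. At this depth, cells with UMIs of both Cux1 and Cux2 were 1.21 times as frequent in WT as the product of the separate shares, 1.18 times in Het and 1.23 times in KO. Rorb and Mef2c were found together 1.13, 1.21 and 1.18 times as often, and Cux2 and Mef2c 0.96, 0.98 and 0.88 times as often. The other pairs lay between 0.90 and 1.09. These ratios pool both clusters of the class and were not split by cluster. Mef2c and Rorb were higher in the same cluster in each genotype, and the share of that cluster differed between genotypes. Their ratio therefore cannot tell whether they were found together more often within a cluster, which was not tested. In WT 2.39% to 3.06% of layer II-IV-like cells held none of the 5 genes, in Het 4.34% to 4.73% and in KO 4.09% to 5.79%, ranges without overlap between WT and either mutant group. These shares were not split by cluster either. In layer V-VI-like cells KO lay below WT instead (4.73% to 5.77% and 6.36% to 10.4%). Het was there at 8.76% to 10.8%.

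Over all cells of the embryo Mef2c and Rorb again fell in KO, by less than in layer II-IV-like cells, and here fewer cells of a type and less RNA per cell cannot be told apart. Mef2c was at 1182, 1100 and 1072 CPM in WT, at 753, 805, 826 and 885 in Het and at 642, 618 and 638 in KO, 3 ranges without overlap. It fell by 0.41 in Het (SE 0.05, adjusted p = 0.00514, edgeR) and by 0.78 in KO (SE 0.06, adjusted p = 6.92e-06). With the library prefix as a covariate the Het call of Mef2c was lost and its KO call held. Rorb was at 87.4, 98.0 and 71.0 CPM in WT, at 60.4, 59.3, 64.2 and 94.3 in Het and at 63.5, 45.0 and 59.8 in KO. The value of 94.3 CPM was that of Het 4, the embryo on which the prefix covariate rests. It fell by 0.57 in KO (SE 0.18, adjusted p = 0.0299), but the difference was 0.024 with the prefix as a covariate (adjusted p = 0.970), and it was not called without WT 1, WT 2, KO 2 or KO 3 (differences of -0.55, -0.46, -0.44 and -0.60, adjusted p = 0.0672, 0.104, 0.112 and 0.0609). In Het Rorb was at -0.26 (adjusted p = 0.343), and at -0.44 (adjusted p = 0.0361) without Het 4. Cux1 was at 176 to 207 CPM in WT and 147 to 171 in KO, a difference of -0.21 (adjusted p = 0.0271) under the fold threshold, and of -0.28 without WT 2. Cux2 was at 66.5 to 79.6 CPM in WT and 55.5 to 71.3 in KO (-0.19, adjusted p = 0.173), and at -0.30 (adjusted p = 0.0493) without KO 2. Bhlhe22 was at 377 to 410 CPM in WT and 389 to 428 in KO (0.08, adjusted p = 0.293). With every class at equal weight, so that rare classes count as much as neurons, the KO values were -0.52 for Cux2 and -0.73 for Bhlhe22. The classes averaged include erythroid-like cells, taken to lack these transcripts. The 2 of 5 genes called in KO and the 1 in Het stood beside 24.5% and 2.98% of the 17647 genes tested. Against Het 1 to 3, Mef2c alone was called in KO (-0.33, SE 0.05, adjusted p = 0.00351), beside 6.14% of genes.

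In layer V-VI-like cells it was Cux1 and Cux2 that fell, and from low levels. Cux1 was at 66.1, 62.1 and 62.0 CPM in WT, at 46.4, 44.1, 49.4 and 44.8 in Het and at 33.98, 43.6 and 42.6 in KO, 3 ranges without overlap. It fell by 0.44 in Het (SE 0.07, adjusted p = 0.00815, edgeR) and by 0.63 in KO (SE 0.07, adjusted p = 3.76e-05), and under the 7 other clusterings by 0.34 to 0.58 in Het and 0.36 to 0.75 in KO, called in each. With the prefix as a covariate the Het call of Cux1 was lost (-0.49, adjusted p = 0.101) and the KO call held (-0.69, adjusted p = 0.00433). Cux2 was at 17.5, 17.2 and 16.4 CPM in WT, at 12.2, 14.01, 12.9 and 9.71 in Het and at 10.6, 15.1 and 12.5 in KO, with all mutants below WT, and fell by 0.40 in KO (SE 0.13, adjusted p = 0.0297), while its Het difference of -0.47 had adjusted p = 0.0629. With the prefix as a covariate the KO difference of Cux2 was -0.84 (adjusted p = 0.0106, edgeR). In WT this Cux2 level was 2.14 times that of erythroid-like cells, and the Cux2 call was lost without WT 1, WT 2, KO 1 or KO 3 (-0.38 to -0.28). In erythroid-like cells mean Cux2 was at 7.98 CPM in WT and 1.54 in KO, a larger drop in CPM than in layer V-VI-like cells (17.1 to 12.7), and mean Cux1 at 18.2 and 5.47, a smaller one than there (63.4 to 40.1). These CPM carry no TMM factor (normalization between embryos), and the edgeR differences do. The part of free RNA in the changes of Cux1 and Cux2 was not tested. These 2 of 5 genes in KO and 1 of 5 in Het stood beside 23.6% and 1.36% of all genes called. The difference of Mef2c was -0.25 with adjusted p = 0.0522, that of Bhlhe22, 0.23 (adjusted p = 0.0159), was under the fold threshold, and that of Rorb was -0.23 with adjusted p = 0.352. Mef2c was called in KO in 3 of the 7 other clusterings (-0.31 to -0.27). Within the prefix Bhlhe22 alone was called, higher in KO than in Het 1 to 3 by 0.33 (SE 0.04, adjusted p = 0.000291), beside 9.48% of genes.

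Cluster by cluster, the mean Cux1 level of the deep-layer cells was lower in KO than in WT in clusters 3, 6 and 7 (104 to 62.4, 35.8 to 26.4 and 34.2 to 25.7 CPM), and the mean Bhlhe22 level was higher in each. In cluster 3, 3 of the 5 genes were called in KO beside 23.6% of all genes: Cux1 fell by 0.69 (SE 0.09) and Mef2c by 0.45 (SE 0.06), and Bhlhe22 rose by 0.295 (SE 0.08). In cluster 6, 3 were called beside 21.5%: Cux1 fell by 0.40 (SE 0.10) and Rorb by 0.37 (SE 0.13), and Bhlhe22 rose by 0.66 (SE 0.08). Bhlhe22 was there at 130, 138 and 125 CPM in WT, at 113, 90.5, 114 and 121 in Het and at 198, 207 and 192 in KO, with all KO embryos above all others. The Rorb call in cluster 6 was lost without any 1 of WT 2, WT 3, Het 1, Het 2 and the 3 KO embryos (-0.43 to -0.21) and the Cux1 call without WT 2 (-0.31) or KO 1 (-0.27). In cluster 7, 0 of 5 were called by edgeR, beside 16.9%, with Cux1, Rorb and Bhlhe22 at an unadjusted p under 0.05. Whether the clusters differ from each other in these changes was not tested.

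Progenitors and inhibitory cells also moved, partly at levels near that of erythroid-like cells. In subventricular zone-like cells 4 of 5 genes fell in KO beside 15.6% of all genes: Mef2c by 1.28, Cux2 by 0.45, Rorb by 0.38 and Bhlhe22 by 0.33 (adjusted p = 8.58e-06, 0.0381, 0.0336 and 0.0387, edgeR). The Mef2c call alone held without any 1 embryo; the Cux2 call was lost without WT 1, WT 2, WT 3, KO 1 or KO 3 (-0.50 to -0.35), and the Rorb and Bhlhe22 calls without WT 1, WT 2, WT 3, KO 2 or KO 3 (-0.41 to -0.31 and -0.35 to -0.25). DESeq2 gave Rorb an adjusted p of 0.0970 there. Mef2c was at 80.1, 73.4 and 90.2 CPM in WT, at 52.8, 57.7, 86.8 and 70.7 in Het and at 33.4, 29.0 and 33.4 in KO, and all KO embryos were below all others. Its WT level was 1.28 times that of erythroid-like cells, in which Mef2c was at 63.6 CPM in WT and 10.4 in KO, without the TMM factor. With the prefix as a covariate the Mef2c call held (-1.16) and those of Cux2, Rorb and Bhlhe22 did not (-0.79, -0.17 and -0.14, adjusted p = 0.0812, 0.774 and 0.790, edgeR). With doublets removed the Bhlhe22 difference was -0.58 (adjusted p = 0.000966) and still called. In radial glia-like cells 3 of 5 fell in KO beside 20.1%: Mef2c by 0.98, Rorb by 0.82 and Cux2 by 0.61. The Cux2 call was lost without WT 1 (-0.52) or KO 1 (-0.58), by DESeq2 (adjusted p = 0.0630) and with doublets removed (adjusted p = 0.0839). With the prefix as a covariate 0 of these 3 calls held (-0.40, -0.31 and -0.57, adjusted p = 0.496, 0.571 and 0.347, edgeR). The WT level of Mef2c in radial glia-like cells was 144 CPM, 2.26 times that of erythroid-like cells, and 56.8 with doublets removed, where erythroid-like cells were at 56.1. Rorb was at 110, 126 and 130 CPM in WT, at 68.2, 65.4, 107 and 118 in Het and at 73.0, 54.5 and 71.0 in KO, with KO below WT and Het 4 within the WT range. In Het radial glia-like cells Mef2c alone fell, by 1.26, beside 2.09%, and by 0.69 with doublets removed, a call that was lost with the prefix as a covariate (-0.87, adjusted p = 0.110). With doublets removed the KO difference of Mef2c was -0.86 and still called. In ganglionic eminence-like cells 0 of 5 were called by edgeR or DESeq2 in KO, beside 4.09%, with Mef2c alone at an unadjusted p under 0.05 (-1.33, adjusted p = 0.0696), and 0 of 5 in Het, beside 0.0644%, with 2 at an unadjusted p under 0.05. In subventricular zone-like cells of Het embryos 0 of 5 were called by edgeR or DESeq2, beside 0.936%, with 2 at an unadjusted p under 0.05.

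In interneuron-like cells Mef2c was at 1384, 1082 and 1295 CPM in WT, at 1085, 1019, 1065 and 983 in Het and at 920.4, 761 and 810.2 in KO, with KO below all others. It fell by 0.58 in KO (SE 0.10, adjusted p = 0.00654, edgeR), as did Rorb by 0.65, 2 of 5 beside 8.72% of all genes. The Rorb call was lost without KO 2 (-0.65, adjusted p = 0.0501), and with the prefix as a covariate both calls were (-0.70 and -0.68, adjusted p = 0.212 and 0.435). In Het 0 of 5 were called by edgeR or DESeq2, with 2 at an unadjusted p under 0.05. Of all 13004 genes tested there, 0% were called in Het by edgeR, with 1798 at an unadjusted p under 0.05 and 68 called by DESeq2. Cux2, at its highest class level here, was at 264, 173 and 209.8 CPM in WT and at 207, 219 and 181 in KO, groups that overlapped. In striatal inhibitory-like cells Mef2c was at 300.1, 255 and 329 CPM in WT, 179, 179, 180.1 and 194 in Het and 130.1, 138 and 158 in KO, and fell by 0.65 in Het and by 1.02 in KO (SE 0.08 and 0.08, adjusted p = 0.000496 and 7.93e-07). Bhlhe22 fell too, by 0.59 and 0.996, so that 2 of 5 were called in each, beside 2.56% in Het and 16.7% in KO. The Het call of Bhlhe22 was lost without WT 1 (-0.49), WT 3 (-0.59) or Het 2 (-0.50). With the prefix as a covariate the KO call of Mef2c held (-0.93, adjusted p = 0.00315), and its Het call and both calls of Bhlhe22 were lost (adjusted p = 0.264 for Mef2c, 0.533 and 0.0513 for Bhlhe22 in Het and KO). Bhlhe22 in WT was at 24.4 CPM in striatal inhibitory-like cells, 1.01 times its level in erythroid-like cells.

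In erythroid-like cells themselves, the gauge of free RNA, Mef2c was at 53.9, 46.6 and 90.2 CPM in WT and at 4.77, 9.88 and 16.54 in KO. It was called with a change of -1.07 (adjusted p = 0.0320, edgeR), 1 of 4 genes tested beside 7.54%. This change carries the TMM factor (normalization between embryos) and the CPM do not, and it was smaller than the drop in CPM. The call was lost without WT 2, WT 3, KO 1 or KO 2 (-1.08 to -0.73) and with doublets removed (adjusted p = 0.0545, edgeR). In Het 0 of 4 were called there by edgeR or DESeq2, beside 0%, with 0 at an unadjusted p under 0.05; of the 2401 genes tested 176 had one, and DESeq2 called 3. Bhlhe22 was at 11.97, 25.9 and 34.3 CPM in WT erythroid-like cells and at 5.46, 6.84 and 4.35 in KO. The part of free RNA in the changes of the low classes was not tested. In Cajal-Retzius-like cells Mef2c alone was called, by -1.44 in Het beside 0.133% and by -0.90 in KO beside 5.53% (edgeR), and both calls were lost with doublets removed. It was at 195, 308 and 128 CPM in WT, at 60.5, 101, 62.7 and 77.3 in Het and at 114, 113 and 106 in KO, with all mutants below WT. With doublets removed the WT level was 38.4 CPM (37.8 to 38.8), in place of 210, and that of erythroid-like cells 56.1, and the differences were -0.0013 in Het and 0.12 in KO (adjusted p = 0.9995 and 0.878, edgeR). The KO call was also lost without WT 2 (-0.51), KO 2 (-0.905) or KO 3 (-0.86) and by DESeq2 (adjusted p = 0.139), and both calls were lost with the prefix as a covariate. In microglia-like cells 0 of 3 genes tested were called in KO or Het by edgeR or DESeq2, beside 3.22% and 0%, with 0 at an unadjusted p under 0.05. Of the 4219 genes tested in Het microglia-like cells 505 had an unadjusted p under 0.05, and DESeq2 called 39. In mural-like cells 0 of 4 were called in KO or Het by edgeR, beside 0.286% and 0.0106%. Bhlhe22 alone had an unadjusted p under 0.05 there, in KO, and DESeq2 called it (-2.71, adjusted p = 0.00259); its WT level was 1.36 times that of erythroid-like cells. Mef2c in microglia-like cells was at 589, 583 and 1206 CPM in WT and at 872, 574 and 781 in KO, groups that overlapped.

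**Figure D5:**
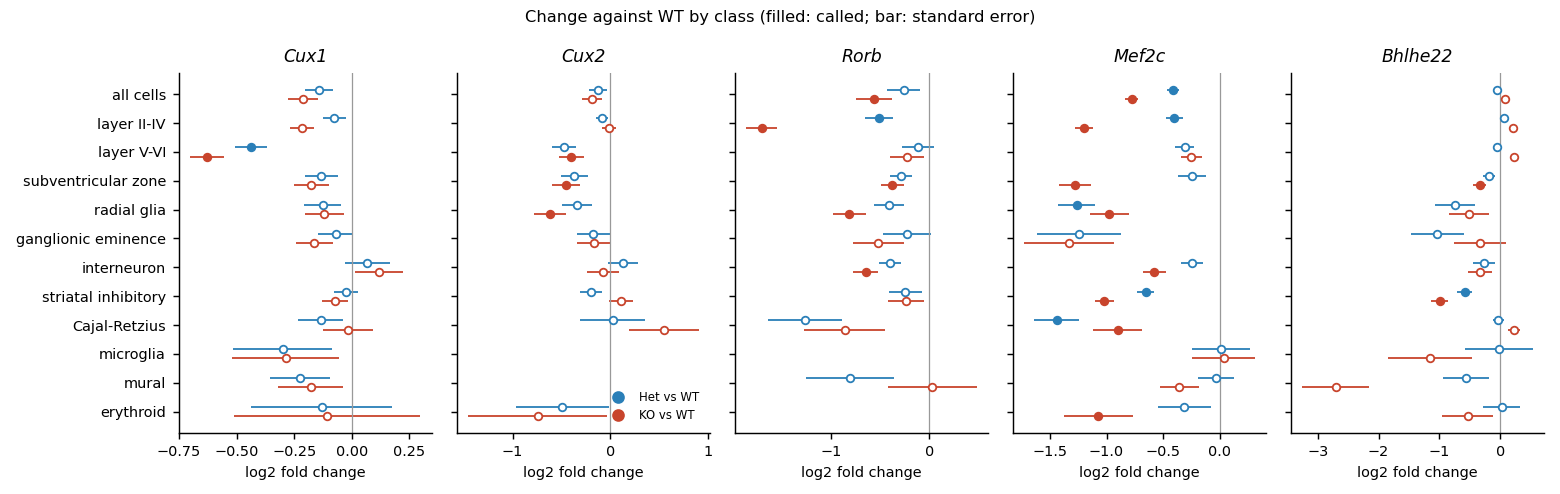
log2 fold change of each gene against WT over all cells and in each class tested, for Het and KO, from edgeR; bars are standard errors, and filled points passed the rule for a call. Mef2c was called lower in KO in 7 of 11 classes, Rorb in 4 of 9, Cux2 in 3 of 9, Bhlhe22 in 2 of 11 and Cux1 in 1 of 11. The share of all genes called in KO ran from 0.286% in mural-like to 31.1% in layer II-IV-like cells. Of the 15 called pairs in classes other than layer II-IV-like cells, 6 had a WT level under 3 times that of erythroid-like cells (Mef2c in 3, Cux2 in 2 and Bhlhe22 in 1). With doublets removed 12 of the 15 held. Those lost were Mef2c in erythroid-like and Cajal-Retzius-like cells and Cux2 in radial glia-like cells.

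The KO change of the layer II-IV-like class was tested against that of each other class with the trend over 0, 1 and 2 mutant alleles of the difference between the log2 levels of both classes (exact permutation test over 4200 assignments, two-sided, 46 pairs of gene and class in the family). The KO difference of Mef2c in layer II-IV-like cells minus that in layer V-VI-like cells was -0.96 (adjusted p = 0.0197), and that of Rorb was -1.49 (adjusted p = 0.0175), so both genes lost more in the upper-layer class as a whole. These values include the shift of makeup between clusters 0 and 1, at whose WT makeup the layer II-IV-like KO difference was -0.87 in place of -1.24 for Mef2c and -1.55 in place of -1.72 for Rorb; the difference between classes was not tested at a fixed makeup. For Cux1 the same value was 0.41 (adjusted p = 0.0237), so it lost more in the deep-layer class, and for Cux2 it was 0.37 (adjusted p = 0.0503). The difference of Rorb stayed past the threshold without any 1 embryo, that of Mef2c did not without KO 1 or KO 3 (adjusted p = 0.0639 and 0.0562), and that of Cux1 did not without WT 2, KO 1 or KO 3 (0.0562 to 0.0664). Of the 7 other clusterings, 7 gave Mef2c past the threshold (-0.95 to -0.79), 5 gave Rorb (-1.50 to -0.81 over all 7) and 3 gave Cux1 (0.11 to 0.54 over all 7). For Bhlhe22 the value against layer V-VI-like cells was -0.03 with adjusted p = 0.835. Against subventricular zone-like cells the Mef2c value was 0.08 with adjusted p = 0.789, and that of Bhlhe22 was 0.55 with adjusted p = 0.0110, past the threshold without any 1 embryo and in each of the 7 other clusterings. In the whole family 16 of the 46 pairs passed. This trend was not computed for other genes, so no share of all genes stands beside the count.

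The genes around these factors were described by lists drawn up for this purpose, and their counts stand beside the share of all genes tested that was called in KO, 24.5% over all cells and 31.1% in layer II-IV-like cells. The lists are short, and no count was tested against that share. Of 16 upper-layer neuron genes, 3 rose and 7 fell in KO over all cells (median log2 fold change -0.21), and 4 rose and 8 fell in layer II-IV-like cells (-0.25). Nectin3, an adhesion molecule of upper-layer neurons, fell by 0.81 over all cells and 1.61 in layer II-IV-like cells. Hs6st2, a heparan sulfate sulfotransferase, fell by 0.86 and 0.90, and Dok5, an adaptor protein of receptor kinases, by 0.71 and 0.85. The 3 upper-layer genes that rose over all cells did so by 0.26 to 0.32. Of 13 deep-layer genes, 4 rose and 4 fell over all cells (median 0.12), and 5 rose and 4 fell in layer II-IV-like cells (0.15). Fezf2, the selector gene of corticofugal neurons, rose by 1.02 and 1.64, and Sox5 by 0.94 and 1.52, while Etv1, a factor of layer V neurons, fell by 0.75 and 1.18. The medians over all genes tested were -0.0055 and -0.0050.

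The nearer relatives of MEF2C and RORB were counted in the same way, beside 24.5% and 31.1% of all genes. Of 13 genes of the MEF2 family and its deacetylase and kinase partners, 1 rose and 1 fell over all cells, and of 12 tested in layer II-IV-like cells 0 rose and 2 fell. Mef2a was at -0.22 over all cells (under the fold threshold) and fell by 0.275 in layer II-IV-like cells, Mef2d was at -0.01 and -0.09, and Hdac7, a deacetylase that binds MEF2 factors, fell by 0.36 and 0.56, while the kinase gene Camk4 rose by 0.26 over all cells and was at 0.24 in layer II-IV-like cells. Of 8 known MEF2 target genes, 2 rose and 2 fell over all cells, and of 7 tested in layer II-IV-like cells 2 rose and 3 fell. Jun rose by 0.67 and 0.56, and the potassium channel gene Kcna1 fell by 1.04 and 0.88. Of 7 genes of the ROR, Rev-erb and COUP-TF families, 2 rose and 2 fell over all cells, and 2 rose and 1 fell in layer II-IV-like cells. Arntl, a clock gene under ROR control, fell by 0.53 and 0.79, and Rora fell by 0.38 over all cells and was at 0.14 in layer II-IV-like cells (adjusted p = 0.555).

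Beside the same shares, among 8 homeobox relatives of Cux and Xlr genes that the Cux proteins are known to regulate, 2 rose over all cells and 0 fell, and of 6 tested in layer II-IV-like cells 2 rose and 0 fell. Xlr3a rose by 1.65 over all cells and by 1.90 in layer II-IV-like cells, and Xlr4a rose from 0.00835 to 0.0725 CPM in WT to 0.220 to 0.467 in KO, levels of few UMIs. Xlr genes are near-identical X-linked copies whose reads can be split between them, so single copies are uncertain. Of 10 relatives and partners of Bhlhe22, 2 rose and 2 fell over all cells, and of 7 tested in layer II-IV-like cells 3 rose and 2 fell. The proneural genes Neurog2 and Neurod1 rose by 0.59 and 0.44, and by 0.34 and 1.04 in layer II-IV-like cells. Olig1, a marker of glial progenitors, fell by 0.87 and 1.86. Its level was not set beside that of erythroid-like cells, and the part of free RNA in its layer II-IV-like value was not tested. Prdm8, the partner of Bhlhe22 and the gene most like it over the clusters, was at -0.025 and 0.05 and was not called. In Het, where 2.98% of all genes were called over all cells and 7.4% in layer II-IV-like cells, 1 of 16 upper-layer genes fell over all cells and 2 in layer II-IV-like cells, and of 13 deep-layer genes 5 rose and 2 fell in layer II-IV-like cells.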

How the data were processed

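Whole cortices of 10 E16.5 embryos were run as 1 droplet library each (10x 3′ chemistry). The deposited tables hold the raw UMI counts per gene and cell that the authors made with Cell Ranger 6.0.2 on mm10, per the file headers; the methods name another version. Replicates are separate embryos, and p-values measure the spread between them. The study tested single cells; here the embryo is the replicate. Barcodes passed with 1000 UMIs or more, of which no more than 10% were mitochondrial. Seurat 5.3.0 (2000 variable genes without the 5 genes, 30 components, integration over embryos, resolution 0.4) gave 25 clusters; 4 other random starts and 3 other settings gave 20 to 39. Clusters were named from marker lists, by score thresholds that were set after the clusters were seen; clusters that failed the rules were left unnamed. Scrublet's own threshold marked 0% to 2.11% of barcodes of an embryo as doublets; none were removed, and removal of the highest-scoring 5.27% to 8.55% was an alternative.

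The UMIs of an embryo were added up over all its cells, over each class in which every embryo had 20 cells or more, or over each cluster, and tested with edgeR 4.0.16 (filterByExpr, TMM, quasi-likelihood F-test, all 10 embryos in 1 fit), with Benjamini-Hochberg adjustment over all genes of the fit. Printed CPM values are relative to all UMIs of the class, with no TMM factor, except those of Xlr4a, which carry it; fold changes carry it as well. Alternatives were DESeq2 1.42.0, other filters and clusterings, the library prefix as a covariate, a replicate block and leaving out embryos. Shares of cells were taken at 3000 UMIs per cell and tested by exact permutation over embryos, as were differences between classes (pseudocount 0.5 CPM). Intervals of counting error were not computed, since the spread between embryos was used. The scripts were tested on simulated counts. The 5 genes, the gene lists and the tests were chosen with earlier results of these data known. Named beside the 5 genes were Gatad2b, close family members, at most 3 genes per list with the largest change over all cells among those called in both sets, and up to 5 genes per member by likeness over clusters with at least 200 WT cells. Camk4, called over all cells but not in layer II-IV-like cells, is named outside this rule. The genes that lead a cluster are named to identify it. Some genes that the rule would name are not reported here.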

Additional observations from a re-analysis of the deposited data

Results flagged for a closer look

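Among the 4 Het embryos, 5 of 76 tested values had an embryo apart from the other 3 by Dixon's criterion, where chance flags about 1 in 20. Het 4, whose library name has the WT prefix, was at 94.3 CPM of Rorb over all cells, against 59.3 to 64.2 in Het 1 to 3, and at 202 CPM of Rorb in layer V-VI-like cells, against 118.5 to 133. WT was at 71.0 to 98.0 and 127 to 178 CPM in the same cells. Het 4 was also at 101.3 CPM of Cux2 in cluster 1, against 120 to 122, and at 194 CPM of Mef2c in striatal inhibitory-like cells, against 179 to 180.1. Het 1 was at 922 CPM of Mef2c in microglia-like cells, against 698 to 726.

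The KO change differed between layer II-IV-like cells and another class for 16 of 46 pairs of gene and class (exact permutation test of the trend, two-sided; values are the KO minus WT difference in layer II-IV-like cells minus that of the other class, on the log2 scale, with the number of the 10 fits without 1 embryo in which the pair stayed past the threshold). For Mef2c this was -0.96 against layer V-VI-like cells (8 of 10), -0.63 against interneuron-like cells (5 of 10), -1.31 against microglia-like cells (6 of 10) and -0.86 against mural-like cells (8 of 10). For Rorb it was -1.49 against layer V-VI-like, -1.32 against subventricular zone-like and -1.07 against interneuron-like cells (10 of 10 each), -1.47 against striatal inhibitory-like cells (7 of 10), -0.87 against radial glia-like cells (6 of 10) and -1.11 against ganglionic eminence-like cells (4 of 10). Under the 7 other clusterings these Rorb pairs passed in 2 to 5. For Cux1 it was 0.41 against layer V-VI-like cells (7 of 10) and -0.35 against interneuron-like cells (1 of 10). For Cux2 it was 0.60 against radial glia-like cells (10 of 10), a pair not past the threshold with doublets removed (0.73, adjusted p = 0.0681, exact permutation test). For Bhlhe22 it was 2.90 against mural-like, 1.17 against striatal inhibitory-like and 0.55 against subventricular zone-like cells (10 of 10 each). In 3 of these 16 pairs, Cux2 in radial glia-like cells and Bhlhe22 in mural-like and striatal inhibitory-like cells, the WT level in the other class was under 3 times that of erythroid-like cells. The part of free RNA in them was not tested. The 16 values include the shift of makeup between clusters 0 and 1, and the trend was not computed for other genes.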

How the results depend on the processing

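The KO calls of Mef2c over all cells and of Mef2c and Rorb in layer II-IV-like cells held under every alternative tested with edgeR or DESeq2. With every class at equal weight the Mef2c KO value over all cells was -0.98. The exact permutation test gave p = 0.1 there, the smallest that 3 embryos against 3 allow, so it cannot decide. With the library prefix as a covariate, 1 of 5 genes was called over all cells in KO and 0 in Het, Rorb was at 0.024 in KO and 0.15 in Het, Mef2c at -0.32 in Het and Bhlhe22 at 0.045 in Het. In layer II-IV-like cells the same fit called 0 genes in Het, with Rorb at -0.33 and Mef2c at -0.38, and Bhlhe22 was at 0.42 in KO and then called; in the other classes 6 pairs of gene and class were called in KO and 0 in Het, so that 5 of the 15 KO calls and 0 of the 5 Het calls held. The covariate is estimated from the Het embryos alone, that is, from the single embryo Het 4 against Het 1 to 3. Het 4 was itself apart from these in Rorb over all cells. A shift under this covariate therefore cannot be told from the deviation of that embryo, and the cause of each shift was not tested.

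The layer II-IV-like Het count was 1, without Rorb, with DESeq2 (-0.51), at most 5% mitochondrial UMIs (-0.50), resolution 0.8 (-0.27), no integration (-0.34), the 5 genes among the variable genes (-0.24) and random starts 1 to 4 (-0.29, -0.47, -0.26 and -0.43). The KO count there was 4 at resolution 0.8 (Cux1 -0.25, Bhlhe22 0.32) and with the 5 genes among the variable genes (-0.27 and 0.28); no integration gave Bhlhe22 0.26 and Cux2 0.11, random start 3 Cux1 -0.28 and random start 2 Cux2 0.029. With every class at equal weight, the KO values over all cells were -0.34 for Cux1, -0.52 for Cux2, -0.91 for Rorb, -0.98 for Mef2c and -0.73 for Bhlhe22 (main value 0.08), and the Het values -0.43 for Cux2, -0.66 for Rorb, -0.63 for Mef2c and -0.42 for Bhlhe22. Rare classes near the level of erythroid-like cells, and erythroid-like cells themselves, then count as much as neurons. With the cluster makeup held at WT, layer II-IV-like KO values were -0.14 for Cux2, -0.87 for Mef2c and 0.27 for Bhlhe22, and Het values -0.14 for Cux2 and -0.30 for Mef2c. At most 5% mitochondrial UMIs gave -0.012 for Bhlhe22 over all cells and 0.010 for Cux2 in layer II-IV-like cells. At 5000 UMIs the KO minus WT share of cells was -3.65 percentage points for Cux1 (no longer past the threshold) and 3.06 for Bhlhe22 (then past it); not thinned it was 0.95 for Cux1, 0.56 for Cux2 and 1.88 for Bhlhe22 (past it), and the UMIs per Cux1 cell differed by -0.36. At resolution 0.8, 7 differences between classes passed, and WT levels were 106 CPM for Cux2, 110.3 for Rorb and 2012 for Mef2c in layer II-IV-like cells and 31.0 for Cux1, 10.2 for Cux2, 215 for Rorb, 1614 for Mef2c and 422.5 for Bhlhe22 in layer V-VI-like cells; with doublets removed the last class was at 55.7 for Cux1 and 12.8 for Cux2. Removal of doublets in the other classes, an alternative chosen after seeing the data, moved the WT level of Mef2c from 210 to 38.4 CPM in Cajal-Retzius-like, from 144 to 56.8 in radial glia-like and from 105 to 50.04 in ganglionic eminence-like cells, that of Bhlhe22 from 37.3 to 10.5 in radial glia-like cells and that of Cux2 from 41.4 to 14.9 in endothelial-like cells. It gave 0.12 for Mef2c in Cajal-Retzius-like KO cells, and 12 of the 15 KO calls and 4 of the 5 Het calls in the other classes held.

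Same-numbered embryos did not deviate together over all cells (correlations from -0.71 to 0.16). Embryos of different number gave -0.35 to 0.57. This check showed no pairing by number, but it cannot exclude one, since deviations over all cells also carry cell makeup. With the replicate number as a replicate block, 2 genes were called over all cells in Het, with Rorb at -0.43, Bhlhe22 was at -0.0024 in layer II-IV-like Het cells, and 10 pairs in the other classes were called in Het.

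Leaving out 1 embryo at a time gave, over all cells in KO, 1 to 3 genes called, Cux1 -0.28 to -0.16, Cux2 -0.30 to -0.11 and Rorb -0.69 to -0.44, and in Het 1 to 2 genes called and Rorb -0.44 to -0.15. In layer II-IV-like cells it gave Cux1 -0.26 to -0.17 and Cux2 -0.070 to 0.046 in KO, and 1 to 2 genes called, Rorb -0.58 to -0.38 and Bhlhe22 -0.0025 to 0.11 in Het. Within 1 prefix it gave Rorb -0.24 to 0.00019 over all cells, and Cux2 -0.041 to 0.074 and Bhlhe22 0.16 to 0.26 in layer II-IV-like cells. It gave 9 to 17 pairs in the other classes in KO (9 without WT 2) and 4 to 9 in Het (9 without Het 4), 1 to 3 pairs in clusters 0 and 1 in Het (1 without WT 2 or Het 1), -6.86 to -3.36 percentage points for the share of Cux1 cells, -4.35 to -1.59 for Cux2 and 2.88 to 4.18 for Bhlhe22, -0.031 to 0.031 UMIs per Cux2 cell, -0.016 to 0.068 per Bhlhe22 cell, and 7 to 16 differences between classes (7 without KO 1 or KO 3, 10 without WT 2). Of all genes over all cells, 525 were called in Het, against 1002 with DESeq2, 1850 with the replicate block, 159 with WT and Het fitted alone, 300 with doublets removed, 41 with the prefix covariate and 74 (without WT 1) to 1829 (without Het 4) with an embryo left out. In KO the count was 1467 with the prefix covariate against 4326. In layer II-IV-like cells the counts with that covariate were 310 against 1048 in Het and 2430 against 4409 in KO, with the block 1740 in Het, and 467 (without WT 3) to 1674 (without Het 4) in Het with an embryo left out. Within 1 prefix over all cells the count of 1054 became 569 without Het 2, 608 without Het 3 and 678 without KO 3. Depth limits the rare classes: members with few UMIs there could not be told from free RNA.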

Other observations

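Bhlhe22 in cluster 4 did not follow its course in cluster 0. This unnamed cluster, led by Fam19a1, Tfap2d and Thsd7a, had the highest Bhlhe22 level of the 25 clusters in WT. Bhlhe22 was there at 765, 869 and 938 CPM in WT, at 736, 771, 832 and 822 in Het 1 to 4 and at 738, 695.5 and 730.4 in KO, with the KO embryos below the WT embryos, where cluster 0 had KO above WT. The edgeR difference of -0.23 (SE 0.07, adjusted p = 0.0488) was under the fold threshold, and whether it differs from that of cluster 0 was not tested. Mef2c in the same cluster was at 1021, 872 and 964 CPM in WT and at 753, 647 and 683 in KO, ranges without overlap.

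Mef2c in cluster 6 of the layer V-VI-like class was at 1566, 1596 and 1455 CPM in WT, at 1158, 1241 and 1239 in Het 1 to 3, at 1506 in Het 4 and at 1336, 1418 and 1522 in KO. KO lay above Het 1 to 3, which share its library prefix (0.27, SE 0.06, adjusted p = 0.0119, edgeR), and overlapped WT. This was the reverse of the order of these groups in layer II-IV-like cells, where KO lay below Het 1 to 3. No share of all genes called was computed for that fit within the prefix in cluster 6. Such fits were made in other clusters too.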
